A study of Mus musculus with 2 samples.

Results

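Annexin-rich revival-like cells were a group of 60 cells in cultures of mouse small intestinal organoids, chosen from 4066 kept cells. A barcode was kept as a cell if it had at least 500 genes, at least 1000 unique molecular identifiers (UMIs, each standing for 1 captured RNA molecule) and at most 20% mitochondrial UMIs. A kept cell was a member if Anxa1, Anxa3, Clu and Il1rn together reached 2 UMIs per 10000 of the cell (CP10K), with Chgb under 5 CP10K and fewer than 2 Olfm4 UMIs. Of the cells that reached the sum, the Chgb limit set aside 3 in each set and the Olfm4 limit 0, so the Olfm4 limit shaped the comparison cells alone. The rule used measured values, so the levels of these genes describe the choice and are not findings.

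The study grew organoids, which are small epithelial structures that form crypt-like buds in culture, in control or melatonin-treated medium. Its title concerns epithelial repair driven by YAP and prostaglandin E2. The labels give 1 control and 1 melatonin-treated library (10x Genomics 3' libraries), each made on culture day 3 from single cells of 3 pooled organoid lines. No strain, age or genotype of the mice is given in the sources used here. The files of the 2 samples were identical, so the data were handled as 1 sample with 2 barcode sets, set 1 (barcodes ending in 1) and set 2 (ending in 2). These numbers are barcode suffixes only. Nothing ties a suffix to a treatment, so control and melatonin were not compared, and set 2 over set 1 is an arbitrary direction. Cells are not replicates, no test was possible and no p-value is given. Every interval is at the 95% level and covers counting error only.

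Revival stem cells are rare epithelial cells marked by clusterin that appear when the intestinal lining is damaged and can rebuild it. They rely on YAP, a transcriptional co-activator that works with TEAD factors at DNA, and they switch on genes of the fetal intestine, among them annexins, S100 proteins and Ly6a. Annexins are calcium-dependent membrane-binding proteins, clusterin is a secreted chaperone, and Il1rn encodes the receptor antagonist that blocks interleukin-1.

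Set 1 held 26 members among 2300 kept cells, a share of 1.13% (exact Clopper-Pearson interval 0.740% to 1.65%), and set 2 held 34 among 1766 cells, or 1.93% (1.34% to 2.68%). The members of set 1 were shallow, with a median of 9984 UMIs (range 1027 to 79441), against 47994 UMIs (4962 to 124906) in set 2. Comparison cells, which met the same Chgb and Olfm4 limits but had less than 2 CP10K of the rule genes, numbered 1669 and 1398 and had medians of 32735 and 32212 UMIs. In 7 members (6 of set 1 and 1 of set 2) the choice rested on a single UMI, in 3 on 2 UMIs and in 50 on 3 or more. The summed level of the rule genes had a lowest, median and highest value of 2.54, 8.26 and 39.4 CP10K in set 1 and of 2.02, 5.95 and 40.4 CP10K in set 2. No member of set 1 and 4 of set 2 lay just inside the limit (2 to 2.5 CP10K), and 3 cells and 2 cells lay just outside it (1.5 to 2 CP10K). The median mitochondrial share was 9.13% and 6.14% in members and 9.49% and 9.60% in comparison cells. Across the matrix, 29 barcode sequences occurred with both suffixes, and none of them was a member.

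**Figure D1:**
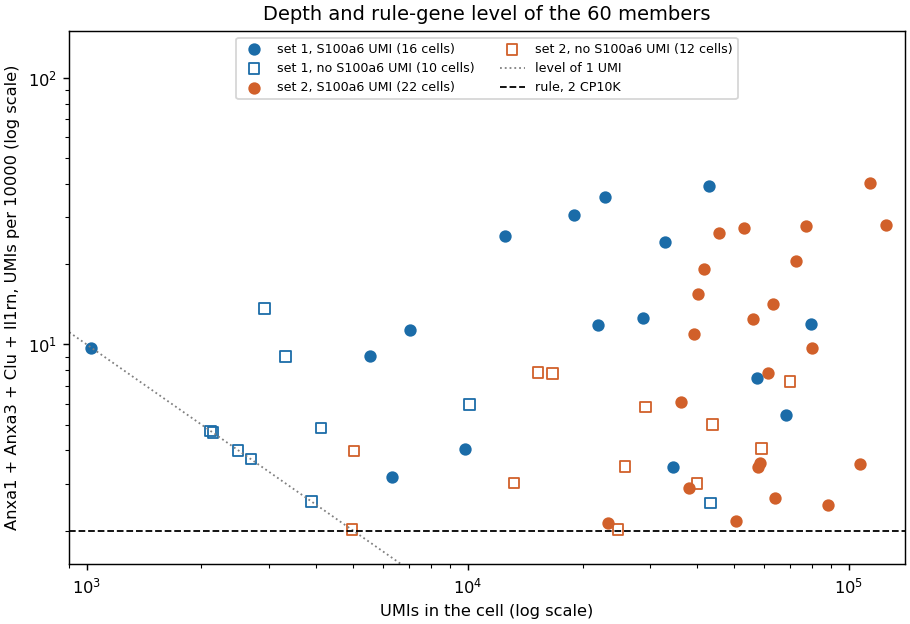
Depth of each of the 60 members (UMIs in the cell, horizontal log axis) against the summed level of the 4 rule genes (UMIs per 10000, vertical log axis), for set 1 (blue) and set 2 (orange), with filled circles for cells with an S100a6 UMI and open squares for cells without. The dashed line is the rule's limit of 2 CP10K and the dotted line is the level that 1 UMI gives, on which the 7 members with a single UMI lie.

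The members were unlike each other in the rule genes themselves. Anxa3 had a UMI in 55 members, Il1rn in 47, Anxa1 in 41 and Clu in 31. All 4 genes were detected in 28 members, 3 in 11, 2 in 8 and 1 gene alone in 13, whose median depth was 3893 UMIs. Anxa3 gave the most UMIs in 30 members, Anxa1 in 17, Il1rn in 10 and Clu in 3. Summed over members and given per 1000000 UMIs of the group (CPM), Anxa1 stood at 356 CPM in set 1 and 382 CPM in set 2, Anxa3 at 635 and 438, Clu at 152 and 160, and Il1rn at 224 and 312. Each was below 3 CPM in the comparison cells, where the rule held the sum of the 4 genes under 2 CP10K in every cell.

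S100a6 and Krt23, the 2 markers of the label that the rule did not use, were each missing from a large share of members. Both had a UMI in 30 of 60 members, S100a6 alone in 8, Krt23 alone in 6 and neither in 16. S100a6, a calcium-binding protein, had a UMI in 16 of 26 members of set 1 and in 22 of 34 of set 2. Its summed level was 7038 CPM (6814 to 7268) in members and 14.5 CPM (13.4 to 15.6) in comparison cells of set 1, and 4278 CPM (4181 to 4376) and 27.5 CPM (26.0 to 29.1) in set 2. Its level per cell ran from 0 through a median of 5.38 to 320 CP10K in set 1 and from 0 through 4.07 to 486 CP10K in set 2. The 3 cells with the most S100a6 held 85.4% of its UMIs in set 1 and 58.5% in set 2, so the summed level stands mainly for a few cells. Krt23, a type I keratin, had a UMI in 12 of 26 and 24 of 34 members, at 254 CPM against 2.2 CPM in set 1 and 228 against 3.61 CPM in set 2. With each cell thinned to 2000 UMIs, an expected 49.5% and 51.5% of members had an S100a6 UMI, against 2.65% and 3.65% of comparison cells. Enterocyte-rich cells, with median depths of 34286 and 33487 UMIs, gave 0.522% and 0.838% at the same depth, enteroendocrine cells 4.78% and 2.26%, and Olfm4 cells 1.79% and 7.38%, the last from 10 cells. For Krt23 the thinned shares were 22.6% and 23.3% of members, against 0.590% and 0.817% of comparison cells. The markers of the label thus held for the summed levels and not cell by cell. Of the 22 members with no S100a6 UMI, 12 had at least 10000 UMIs.

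Promoter sequence is shown for 3 genes with far higher summed levels in members, chosen because each held a pair of matches to TGANTCA. This is the site bound by AP-1, a dimer of Fos and Jun family proteins that acts beside YAP and TEAD at many repair genes. The sequences are the 250 bases before the annotated start in RefSeq (build GRCm38.p6), 5′ to 3′ along the gene, and capitals mark the TGANTCA matches.
S100a11, chr3:93520246-93520495, plus strand: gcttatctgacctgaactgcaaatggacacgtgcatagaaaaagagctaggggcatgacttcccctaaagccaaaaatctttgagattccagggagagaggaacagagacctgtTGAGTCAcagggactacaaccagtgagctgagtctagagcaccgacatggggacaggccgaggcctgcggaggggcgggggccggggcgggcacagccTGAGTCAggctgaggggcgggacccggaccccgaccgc
Anxa10, chr8:62123194-62123443, minus strand: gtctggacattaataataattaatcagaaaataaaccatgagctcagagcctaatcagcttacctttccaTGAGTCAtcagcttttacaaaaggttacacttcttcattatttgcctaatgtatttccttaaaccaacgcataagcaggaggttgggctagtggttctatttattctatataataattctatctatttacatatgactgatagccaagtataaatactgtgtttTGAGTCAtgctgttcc
Sprr1a, chr3:92485882-92486131, minus strand: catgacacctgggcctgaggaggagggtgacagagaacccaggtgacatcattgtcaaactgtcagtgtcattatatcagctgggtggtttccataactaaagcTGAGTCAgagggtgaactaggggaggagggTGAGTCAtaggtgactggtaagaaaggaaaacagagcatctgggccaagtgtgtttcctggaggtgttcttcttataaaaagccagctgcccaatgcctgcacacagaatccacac

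The matches began 136 and 38 bases before the start of S100a11, 180 and 16 bases before that of Anxa10, and 146 and 116 bases before that of Sprr1a. RefSeq windows of 300 bases (250 before to 50 after the start) were found for 8 of the 15 genes named below as most elevated, and TGANTCA on either strand was in 3 of the 8. It was absent from the windows of S100a6, Capg, Krt23, Gsn and Pnliprp2. Among all genes higher in members, 597 had a window and 13.6% of those held TGANTCA, against 8.96% of 134 genes lower in members, 6.37% of the 9911 tested genes with a window and 8.97% of all 27025 genes of the table. GGAATG, the core of the TEAD site, was searched on both strands in the same way and was in 19.6%, 17.2%, 14.3% and 16.6% of those genes, and in 1 of the 8. Of the 12 genes named below as most reduced, 9 had a window, and 2 of the 9 held TGANTCA and 2 held GGAATG. A match describes letters in a window and does not show that a factor binds there.

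The next question was which other genes set the members apart. A gene was counted as higher or lower if it differed at least 2-fold from comparison cells in the same direction in each set, on a scale of CPM plus 1, with Poisson intervals apart in each set. Of 13040 genes with at least 10 UMIs in each set, 779 were higher (5.97%) and 175 were lower (1.34%). Since members were chosen by expression in the same cells, these counts describe the chosen cells and test nothing. A few cells weighed heavily in the sums. The 3 deepest members held 38.9% of member UMIs in set 1 and 19.9% in set 2, and only 148 of the 779 genes had less than 50% of their UMIs in 3 cells in each set. The count was 606 without the 3 members of each set with the highest rule sum and 760 with members of at least 10000 UMIs alone. It was 470 without the 28 members that carried at least 10 CP10K of enterocyte, goblet or Paneth markers, an alternative chosen after seeing the data.

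The 15 genes with the largest excess, S100a6 and Krt23 among them, included cell-surface proteins, S100 proteins, an annexin and actin-capping proteins. Msln, which encodes the surface glycoprotein mesothelin, stood at 1069 CPM (982 to 1161) in members and 0.0807 CPM (0.0220 to 0.207) in comparison cells of set 1. In set 2 it stood at 527 CPM (494 to 563) and 0.363 CPM (0.208 to 0.590), and 32 of 60 members had a UMI. Ly6d, Psca and Ly6a belong to the Ly6 family of lipid-anchored surface proteins. Ly6d was at 631 and 399 CPM in members and at 0.0605 and 0.0908 CPM in comparison cells, and Psca at 404 and 74.1 CPM against 0.0404 and 0.204 CPM. Ly6a, the stem cell antigen Sca-1 and a marker of fetal-like repair epithelium, was at 208 and 251 CPM against 0.686 and 0.340 CPM. Msln had 4 UMIs in comparison cells of set 1, Ly6d 3 and 4 and Psca 2 and 9 in set 1 and set 2, so these 3 genes passed the filter of 10 UMIs through the members and their place among the 15 was fixed by it. Ly6d and Psca were each detected in 19 members and Ly6a in 23, so none of them marked the group as a whole.

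S100a11, an S100 protein that binds annexins, was detected in more members than any other of the 15 genes. It had a UMI in 54 of 60 members, at a median of 12.6 CP10K in set 1 and 14.7 CP10K in set 2, and at 2068 CPM (1947 to 2194) and 2244 CPM (2174 to 2315) against 42.7 and 71.3 CPM. After thinning to 2000 UMIs, 75.0% and 84.8% of members had an S100a11 UMI, against 8.12% and 12.2% of comparison cells. Anxa10, an annexin outside the rule, had a UMI in 42 members and stood at 824 and 472 CPM against 0.666 and 2.11 CPM. S100a14 was at 316 and 357 CPM against 5.93 and 9.15 CPM and was detected in 43 members.

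The actin filament-capping proteins Capg and Gsn (gelsolin) were both among the 15. Capg was at 231 and 148 CPM against 2.16 and 1.07 CPM, and Gsn at 233 and 263 CPM against 6.56 and 11.96 CPM, with a Gsn UMI in 46 members. Cxcl16, a chemokine that is displayed on the cell membrane, was at 210 and 320 CPM against 6.26 and 11.99 CPM. Gprc5a, an orphan receptor induced by retinoic acid, was at 81.5 and 100.6 CPM against 1.05 and 2.66 CPM. Pnliprp2, a lipase related to pancreatic lipase, was at 546 and 413 CPM against 14.6 and 19.5 CPM, and was also present in enterocyte-rich cells at 127 and 142 CPM. Sprr1a, a precursor of the cornified envelope of squamous cells, was at 356 and 232 CPM against 1.998 and 4.56 CPM, with 95.2% and 92.6% of its UMIs in 3 cells.

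**Figure D2:**
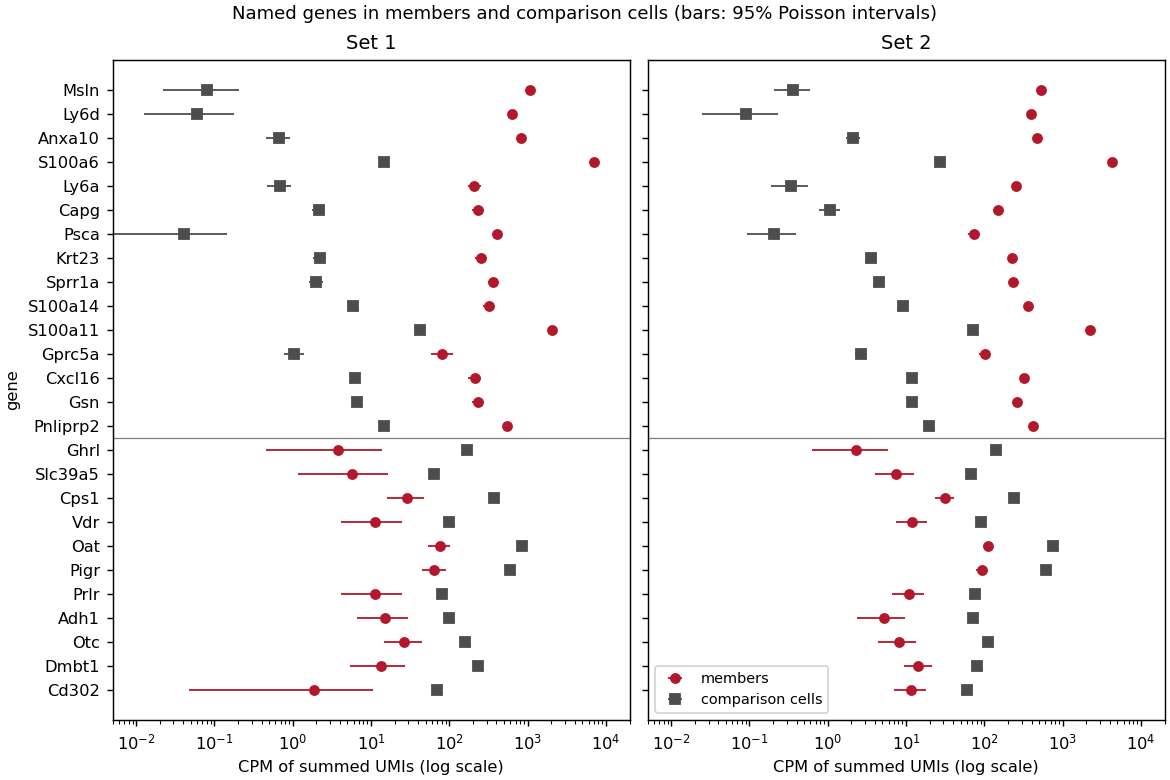
Summed level (CPM, log axis) of the 15 genes with the largest excess and 11 of the 12 with the largest deficit in members (red circles) and in comparison cells (grey squares), for set 1 at left and set 2 at right, with 95% exact Poisson intervals. Above the grey line members lie to the right of comparison cells in each set, and below it they lie to the left, with wide intervals where few UMIs were counted.

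The 12 genes with the largest deficit included enzymes of nitrogen metabolism, a zinc transporter and receptors. Cps1 and Otc, which carry out the first steps of citrulline synthesis from ammonia, were at 28.4 and 31.0 CPM and at 26.5 and 8.04 CPM in members of set 1 and set 2, against 369 and 237 CPM and against 158 and 110 CPM in comparison cells. Oat, the ornithine aminotransferase that supplies that pathway in the gut, was at 75.8 CPM (54.2 to 103) and 110 CPM (94.7 to 126) against 855 and 760 CPM. Pigr, the receptor that carries antibodies of the IgA class across the epithelium, was at 64.4 and 93.1 CPM against 593 and 608 CPM. Vdr, the vitamin D receptor, was at 11.4 and 12.1 CPM against 100 and 89.5 CPM. Dmbt1, a secreted scavenger protein of mucosal surfaces, was at 13.3 and 14.4 CPM against 231 and 81.7 CPM.

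Others of the 12 were Slc39a5 (a zinc transporter), Prlr (the prolactin receptor), Adh1 (an alcohol dehydrogenase), Cd302 (a lectin-like receptor) and Ghrl (the hormone ghrelin). Their member levels ran from 1.90 to 15.2 CPM and their comparison levels from 60.8 to 166 CPM. Ghrl was a case apart, because its 166 and 140 CPM in comparison cells came from a small share of them, with up to 2611 and 2324 CP10K in a single cell, so cells rich in this hormone passed the Chgb limit. At 2000 UMIs an expected 1.85% and 1.88% of comparison cells had a Ghrl UMI, against 2.65% and 0.437% of members, so no order of the shares is read.

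The gene lists that follow are to be read against the 5.97% of all tested genes that were higher and the 1.34% that were lower. A gene with fewer than 10 UMIs in the comparison cells of a set passed the filter through the members, so its call was fixed by the filter. Of all tested genes, 12918 reached 10 UMIs in comparison cells alone, of which 731 were higher (5.66%) and 175 lower (1.35%). List counts are given over the genes that did so where the others change them, an alternative chosen after seeing the data.

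Beyond the rule genes, the list of revival and fetal-like markers had 18 genes. By comparison cells alone 11 of them were tested and 11 were higher, and Msln and Basp1 were tested only through the members. Besides S100a6, Krt23, S100a11, Ly6a, Sprr1a and Msln, it included Areg, an EGF receptor ligand, at 1624 and 1873 CPM against 148 and 352 CPM, with a UMI in 25 of 26 and 33 of 34 members. It also included Cxadr (284 and 228 CPM against 50.3 and 60.5 CPM), Emp1 (186 and 243 against 19.2 and 31.2) and Cd55 (102 and 88.5 against 13.8 and 16.6). Basp1 counted as higher from 1 cell of set 1 and 2 cells of set 2. Spp1 and Gja1 had no UMI in any member. The list was chosen with earlier results of these data known.

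Among the annexins outside the rule, 4 of 8 genes tested by comparison cells alone were higher and none was lower. Anxa2, which pairs with S100a10 at the membrane, was at 1241 and 1547 CPM against 100.3 and 113 CPM and was found in 21 of 26 and 33 of 34 members. Anxa5 was at 144 and 188 CPM against 6.42 and 6.81 CPM, and Anxa7 at 182 and 194 CPM against 47.2 and 49.6 CPM. Anxa8, tested only through the members, had 30 and 73 UMIs in members and 1 and 0 UMIs in comparison cells. Its member UMIs came from 5 and 6 members, with 80% and 91.8% of them in 3 cells. In set 2 its summed level was at least 616-fold higher against a floor of 3 UMIs. Anxa4 (1027 and 860 CPM against 329 and 443 CPM) and Anxa11 (123 and 118 against 54.3 and 63.4) did not reach 2-fold in each set.

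S100 genes followed the annexins, with 8 of 10 tested genes higher and none lower. S100a10 was at 978 and 1127 CPM against 318 CPM in each set, S100a13 at 125 and 81.0 CPM against 12.9 and 14.8 CPM, and S100a16 at 72.0 and 67.8 CPM against 10.5 and 10.4 CPM. S100g, the vitamin D-dependent calcium-binding protein of absorptive cells, differed between the sets, at 379 CPM against 281 CPM in set 1 and 257 CPM against 936 CPM in set 2.

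All 6 simple epithelial keratins were higher. Krt8, Krt18 and Krt19, the keratins of the normal gut lining, were found in nearly every member, and Krt19 was at 4620 and 3419 CPM against 533 and 741 CPM. Krt7, a keratin of ducts and transitional epithelia, was at 364 and 337 CPM against 24.5 and 29.9 CPM. Krt20, a keratin of mature surface cells, was at 205 and 70.7 CPM against 6.44 and 19.4 CPM, in 9 members of each set, with 79.6% and 78.9% of its UMIs in 3 cells.

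Squamous and barrier genes were higher in 5 of 11 cases tested by comparison cells alone and lower in none, and Sprr2a2, Sprr2b and Crct1 were tested only through the members. Of the 32 genes of this list 16 were at 0 in members of set 1 and 12 in those of set 2, and Krt5, Krt13, Krt14 and Trp63, which define squamous epithelium, were at 0 in both. Cldn4, a tight junction claudin, was at 440 and 414 CPM against 36.1 and 54.3 CPM and was found in 20 of 26 and 31 of 34 members. Sfn, the 14-3-3 sigma protein of stratified epithelia, was at 400 and 318 CPM against 91.8 and 99.4 CPM. Sprr2a3 was at 625 and 401 CPM against 21.7 and 43.1 CPM, in 12 and 20 members, and near-identical Sprr2 copies make the split between Sprr2a1, Sprr2a3 and Sprr2b uncertain. Crct1, a cornified envelope gene, showed how far a single cell can set a sum. Its level was 290 and 1741 CPM against 0.161 and 0.454 CPM, but 2691 of its 3030 UMIs in set 2 came from 1 cell, and 3 cells held 100% and 96.4% of its UMIs.

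**Figure D3:**
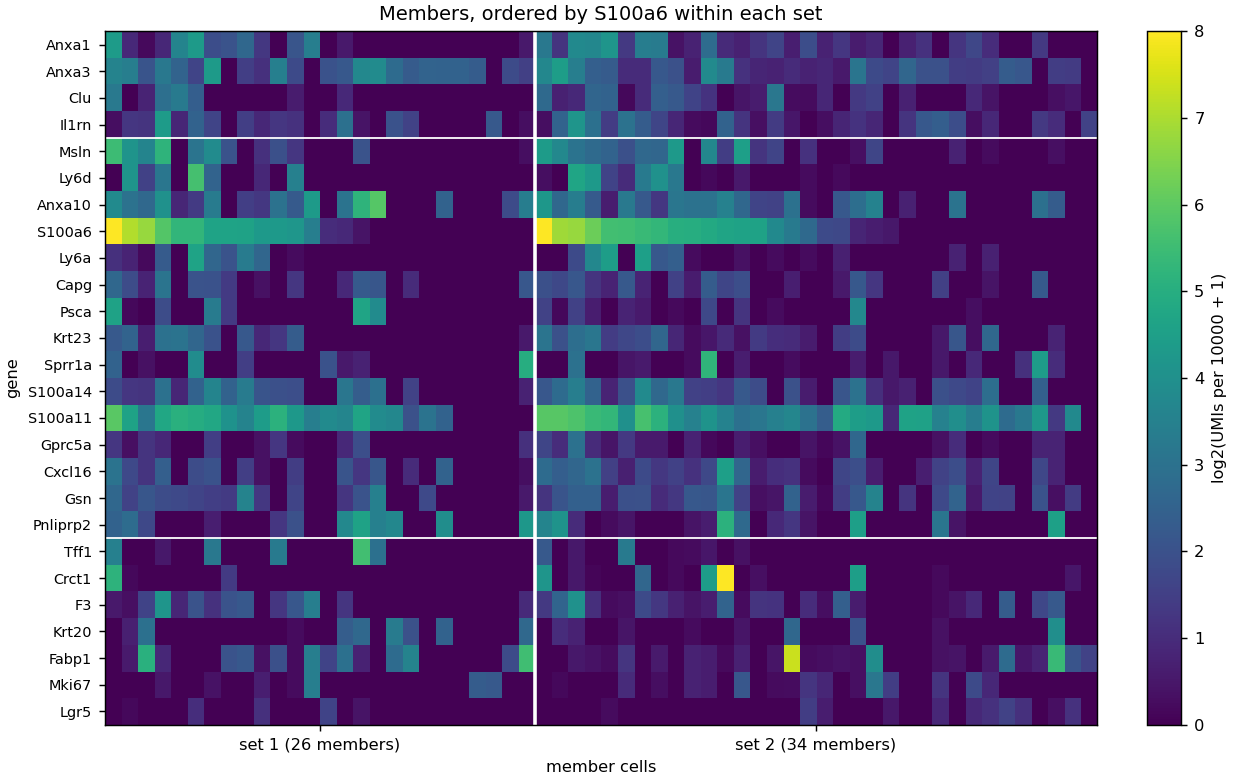
Level per cell of the rule genes (top block), the 15 genes with the largest excess (middle block) and 7 further genes (bottom block), as log2(CP10K + 1) with the colour scale ending at 8, for the 60 members as columns ordered by S100a6 within each set. S100a11 and Anxa3 run across most columns, while Ly6d, Psca, Tff1, Crct1 and Krt20 each appear in fewer.

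YAP target genes were higher in 5 of 14 cases tested by comparison cells alone, with none lower, against 5.66% of all genes so tested. Myof and Rbms3 were tested only through the members. F3, which encodes tissue factor, was at 191 and 215 CPM against 5.35 and 18.7 CPM and was found in 14 of 26 and 25 of 34 members. Ajuba, a LIM protein that restrains the kinases upstream of YAP, was at 19.0 and 28.2 CPM against 0.747 and 1.54 CPM. Amotl2, Myof and Asap1 were at 9.48 to 22.7 CPM in members, and Amotl2 and Asap1 counted as higher. With 527687 UMIs over all members of set 1, the lowest of these levels rest on few UMIs. Ctgf, a secreted matricellular protein, counted as higher from 1 cell of set 1 and 4 cells of set 2. The most used YAP readout, Cyr61, was at 36.0 and 43.7 CPM against 13.9 and 39.9 CPM and did not reach 2-fold in set 2.

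Of 43 tested transcription factors 5 were higher (11.6%) and 2 lower (4.65%), against 5.97% and 1.34% of all tested genes. Wwtr1, which encodes the YAP paralog TAZ, was at 9.48 and 12.6 CPM against 1.09 and 1.36 CPM. Fosl1, an AP-1 subunit, was at 11.4 and 33.3 CPM against 1.92 and 3.88 CPM. Klf4 (138 and 125 CPM against 60.3 and 59.0 CPM), Runx1 (43.6 and 43.7 against 11.3 and 11.1) and Sox21 (15.2 and 27.0 against 2.34 and 3.18) completed those that were higher. Members of set 1 held 527687 UMIs in all, so the levels of Wwtr1, Fosl1 and Sox21 there rest on few UMIs. The intestinal identity factors Cdx1 and Cdx2 were lower. Cdx1 was at 37.9 and 35.6 CPM against 93.0 and 87.2 CPM, and Cdx2 at 32.2 and 33.9 CPM against 89.3 and 71.8 CPM. Klf5, Klf6, Hes1 and Sox4 were not called.

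Among 9 prostaglandin genes tested by comparison cells alone 2 were higher, Slco2a1 and Abcc4, against 5.66% of all genes so tested. Ptgs2, the inducible cyclooxygenase that makes the precursor of prostaglandin E2, was tested only through the members, at 26.5 and 35.6 CPM against 0.121 and 0.0227 CPM. Its UMIs came from 3 of 26 and 5 of 34 members. Slco2a1, the prostaglandin uptake transporter, was at 58.7 and 19.0 CPM against 2.10 and 2.22 CPM, in 3 and 11 members, and the export transporter Abcc4 at 20.8 and 20.1 CPM against 3.21 and 5.52 CPM. The breakdown enzyme Hpgd was at 20.8 CPM against 8.29 CPM in set 1 and 7.47 against 12.6 CPM in set 2.

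Ligands and adhesion genes moved in 1 direction where they were called. EGF family ligands were higher in 3 of 5 tested cases, with Btc at 157 and 89.1 CPM against 12.7 and 24.2 CPM and Tgfa at 26.5 and 23.0 CPM against 5.83 and 7.31 CPM beside Areg. Hbegf was at 146 and 198 CPM against 120 and 192 CPM and was not called. Of 18 integrin, laminin and adhesion genes 8 were higher. Itgb6, an integrin chain of wounded epithelium, was at 49.3 and 57.5 CPM against 5.09 and 6.15 CPM. Cd44, a hyaluronan receptor, was at 53.1 and 96.0 CPM against 21.0 and 25.6 CPM. Epcam, the pan-epithelial marker, was at 841 and 978 CPM against 1242 and 1107 CPM and was not called. In the actin cytoskeleton list 9 of 23 genes were higher, including Ezr (980 and 765 CPM against 120 and 147 CPM) and Lmna (326 and 346 against 65.5 and 80.4).

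Wound and inflammation genes were higher in 8 of 18 cases tested by comparison cells alone and lower in 2, and Wfdc2 was tested only through the members. Plaur, the urokinase receptor, was at 81.5 and 128 CPM against 1.25 and 5.74 CPM, in 13 and 25 members. Plat, the tissue plasminogen activator, was at 66.3 and 67.2 CPM against 2.12 and 3.79 CPM, in 12 and 21 members. Tnf was at 24.6 and 40.2 CPM against 0.605 and 0.908 CPM, but from 2 cells of set 1 and 10 of set 2. The chemokine Ccl20 was at 364 and 228 CPM against 21.1 and 23.6 CPM, with 100% and 88.9% of its UMIs in 3 cells. Pigr, described above, and the small intestinal chemokine Ccl25 were lower, Ccl25 at 83.4 and 63.8 CPM against 253 and 269 CPM.

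Targets of p53, the transcription factor activated by DNA damage and other stress, were higher in 9 of 14 tested cases. Cdkn1a, the cell cycle inhibitor p21, was at 345 and 500.5 CPM against 78.2 and 107 CPM, in 16 and 32 members. Trp53inp1 was at 79.6 and 99.4 CPM against 7.47 and 12.8 CPM, and Ccng1 at 267 and 273 CPM against 57.4 and 92.6 CPM. Mdm2 was at 53.1 and 172 CPM against 24.0 and 29.8 CPM, with 76.3% of its set 2 UMIs in 3 cells. Bax, Bbc3, Pmaip1 and Zmat3 were not called.

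Of the other stress lists, the interferon list had 3 of 15 genes tested by comparison cells alone higher, against 5.66% of all genes so tested, and 1 lower, against 1.35%. Cd74 was tested only through the members. Irf7, Oasl2 and the class I gene H2-D1 were higher, the last at 387 and 425 CPM against 110 and 153 CPM. Ifitm2 was lower, at 36.0 and 121 CPM against 335 and 274 CPM. Cxcl10 had no UMI in members of set 1 and was at 125 CPM in those of set 2, against 30.9 and 35.5 CPM in comparison cells. Of 12 immediate early genes 1 was higher (8.33%, close to the 5.97% of all tested genes), Ier3 at 282 and 313 CPM against 34.7 and 40.2 CPM, while Jun and Atf3 were not called. Of 15 oxidative stress genes 3 were higher. Hmox1, heme oxygenase, was at 62.5 and 52.3 CPM against 3.11 and 5.29 CPM, Gclc at 127 and 113 CPM against 38.1 and 50.5 CPM, and the cystine transporter Slc7a11 at 256 and 75.8 CPM against 7.33 and 18.7 CPM.

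**Figure D4:**
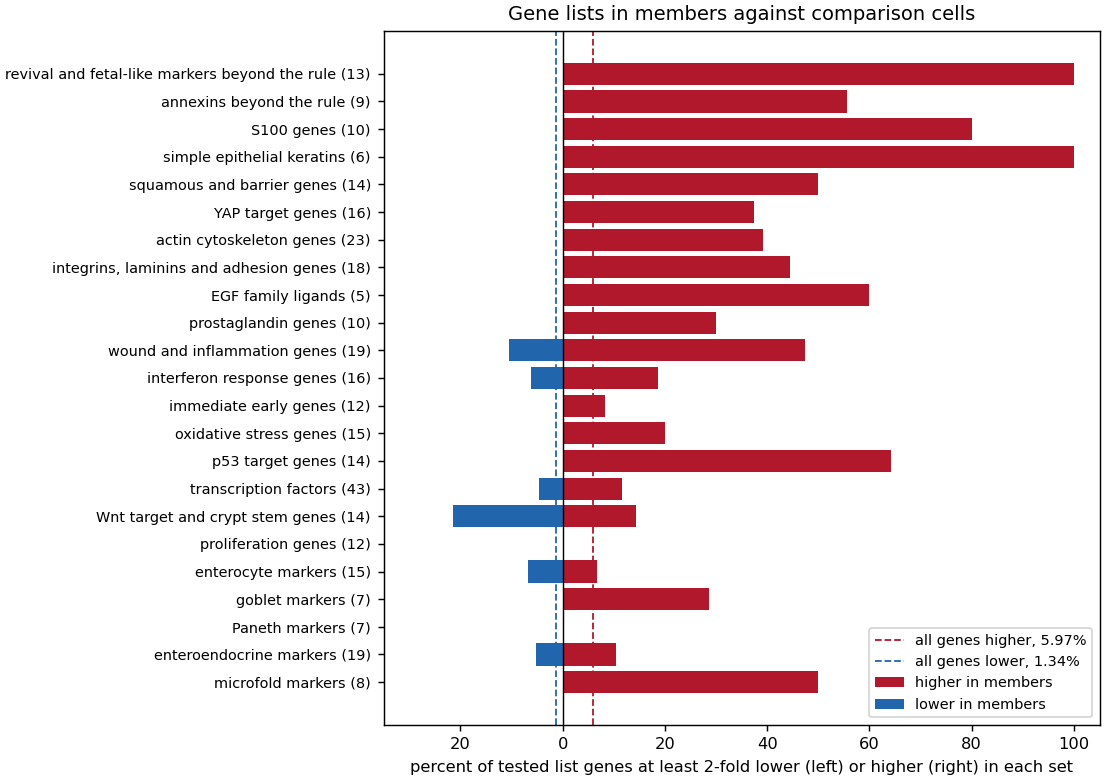
Share of the tested genes of each list (number tested in parentheses) that were at least 2-fold higher (red, to the right) or lower (blue, to the left) in members in each set, in percent, with dashed lines at the 5.97% and 1.34% of all tested genes. Genes tested only through the members are included here. The revival and simple keratin lists reach 100% higher, and the crypt stem list has the longest lower bar at 21.4%.

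Crypt stem genes were called in both directions, with 2 of 14 higher (14.3%, against 5.97% of all tested genes) and 3 lower (21.4%, against 1.34%). Lgr5, the receptor that marks cycling crypt stem cells, was at 19.0 and 24.1 CPM against 109 and 77.2 CPM and was found in 5 and 11 members. Smoc2 was at 70.1 and 53.4 CPM against 151 and 176 CPM, and Cdca7 at 15.2 and 23.6 CPM against 71.7 and 48.3 CPM. Cd44 and Igfbp4 were higher, Igfbp4 at 41.7 and 34.5 CPM against 9.89 and 8.17 CPM but from 2 and 8 members. Axin2, Sox9 and Slc12a2 were not called. The rule left out cells with 2 or more Olfm4 UMIs from members and comparison cells alike, so Olfm4 could not be compared.

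Of 12 proliferation genes none was called, and the sets differed. Top2a, the topoisomerase of dividing cells, was at 3.79 CPM against 170 CPM in set 1 and at 168 CPM against 163 CPM in set 2, and Ube2c was at 41.7 against 628 CPM and at 476 against 375 CPM. At 2000 UMIs per cell, an expected 22.4% of members of set 1 and 35.8% of set 2 had at least 2 UMIs over the 12 genes, against 74.6% and 58.9% of comparison cells. Olfm4 cells gave 85.0% and 79.1%, enteroendocrine cells 9.36% and 6.55%, and enterocyte-rich cells 2.52% and 2.24%. The member shares rested on few cells, and a requirement of 4 UMIs gave 3.73% and 23.2%. Without thinning the member shares were 73.1% and 85.3%. Outside the list, Cdca3, which acts in mitotic entry, was lower in members of each set, at 11.4 and 60.9 CPM against 187 and 136 CPM. Pclaf, a factor that binds the replication clamp PCNA, was lower too, at 20.8 and 78.1 CPM against 231 and 178 CPM. Prc1, Nusap1, Dut and Smc2, named further on for a difference between the sets, were not called. They were at least 2-fold lower in set 1 alone, with log2 ratios of -2.67 to -3.28, against -0.05 to -0.80 in set 2.

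Markers of other cell types were uneven among members, and their part in the results above was not tested. The summed level of 6 enterocyte markers ran from 0 through a median of 3.66 to 112 CP10K in set 1 and from 0 through 1.03 to 218 CP10K in set 2, and it reached 10 CP10K in 9 and 6 members. The longer enterocyte list had 1 of 15 genes higher, a share of 6.67% that is close to the 5.97% of all tested genes (Apob, a lipoprotein component, at 752 and 284 CPM against 79.1 and 130 CPM) and 1 lower (Lct, lactase, at 0 and 1.15 CPM against 7.83 and 14.8 CPM). Fabp1, the fatty acid-binding protein of absorptive cells, was at 896 and 635 CPM against 1762 and 2980 CPM, with 93.0% and 93.9% of its UMIs in 3 cells. Fabp1 had a UMI in 41 of 60 members, 16 of them among the 18 with Krt20 and 25 among those without.

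Goblet markers (5 genes) ran from 0 through medians of 4.36 and 2.37 to 130 CP10K in set 1 and 1142 CP10K in set 2, and reached 10 CP10K in 8 and 11 members. Of 7 tested genes of the longer list 2 were higher, Tff3, a secreted trefoil peptide, at 1147 and 6177 CPM against 219 and 328 CPM with 80% and 86.2% of its UMIs in 3 cells, and Fxyd3, a regulator of the sodium pump, at 197 and 249 CPM against 42.7 and 32.4 CPM. Muc2, the gel-forming mucin that defines goblet cells, had UMIs in 1 member of each set. The member of set 2 with Muc2 had 36 Muc2, 696 Zg16, 3273 Tff3 and 4142 Defa24 UMIs beside 177 S100a6 and 20 rule-gene UMIs. It held nearly all of the 4148 Defa24 UMIs of set 2 members and was the 1 member with at least 10 CP10K of Paneth markers. None of 7 tested Paneth genes was called.

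Without the 28 members rich in enterocyte, goblet or Paneth markers, 13 and 19 members were left, 0.568% and 1.09% of kept cells. Enteroendocrine markers (6 genes) stayed at or below 3.41 CP10K in every member, as the Chgb limit required of that gene. Chgb itself was at 47.4 and 36.8 CPM in members and 46.3 and 40.7 CPM in comparison cells. In the longer enteroendocrine list Cpe was higher at 106 and 55.2 CPM against 9.36 and 8.49 CPM, and Nts, neurotensin, at 2236 and 209 CPM against 0.868 and 0.953 CPM, from 1 cell of set 1 and 3 cells of set 2. The 1180 Nts UMIs of set 1 lay in its cell with the highest S100a6 level, which also had 151 Crct1 and 170 Ccl20 UMIs. The cell with the highest S100a6 level in set 2 had 73 Nts, 77 Crct1 and 129 Ccl20 UMIs.

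Microfold markers, of cells that sample antigen over lymphoid tissue, were higher in 3 of 7 cases tested by comparison cells alone (Ccl20, Anxa5 and Pglyrp1), while Gp2, Spib and Ccl9, which define that cell type, were at 0 in members of each set. Tnfrsf11b, a decoy receptor tested only through the members, was at 17.1 and 52.9 CPM against 0.101 and 0.136 CPM, from 4 and 10 members. None of the 3 gastric and duct genes tested by comparison cells alone was called. Tff1, a trefoil peptide of gastric surface cells, was tested only through the members. It had 214 and 100 UMIs in members and 3 and 0 in comparison cells, which in set 2 puts it at least 844-fold higher against a floor of 3 UMIs. Its UMIs came from 6 and 7 members, with 95.8% and 92.0% in 3 cells, and all 13 also had Anxa10. The gastric markers Tff2, Muc5ac, Gkn2 and Gkn3 were at 0 in members. The 5 fixed mesenchymal markers were at 0 in all members, and the 3 tested tuft genes, 1 mesenchymal gene and 2 immune genes of the longer lists were not called.

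S100a6 varied together with some genes across members and not with others. In the 45 members with at least 10000 UMIs, which share 2 libraries and differ in depth, Spearman's rho with S100a6 (CP10K values, a description) was 0.76 for Msln, 0.66 for Krt23, 0.65 for Ly6d, and 0.57 for S100a11. It was near 0 or negative for Sprr1a (-0.12), Mki67 (-0.10), Krt20 (-0.03), Fabp1 (-0.22) and Lgr5 (-0.34). Over members of any depth, all 19 with Ly6d also had S100a6, as did 21 of 23 with Ly6a, 17 of 19 with Psca and 28 of 32 with Msln. S100a6 itself was found in 38 of 60 members, at a median depth of 44218.5 UMIs, against 11673 UMIs in the 22 without it. How far depth set these joint counts was not tested.

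Members with few detected rule genes were also shallow, so marker counts by the number of rule genes describe the choice and are no finding. Of the 28 members with all 4 rule genes, 25 had S100a6, 24 had Krt23, 25 had Anxa10 and 21 had Msln, at a median of 51802 UMIs. Of the 13 members with 1 rule gene, 3 had S100a6, none had Krt23, 4 had Anxa10 and 1 had Msln, at a median of 3893 UMIs. The part of depth in these counts was not tested.

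Set 2 members and set 1 members were then compared with each other. Of 9569 genes, 287 were at least 2-fold higher in set 2 with intervals apart (3%) and 246 were lower (2.57%). The 6 genes with the largest ratios under the naming rule were Prc1, Cdca3, Nusap1, Dut, Smc2 and Pclaf. Prc1, a spindle midzone protein, had a level of 7.58 CPM in set 1 (2.07 to 19.4), which was 62.1 CPM in set 2 (50.9 to 74.9). Cdca3, Nusap1 (a spindle protein), Dut (the dUTPase), Smc2 (a condensin subunit) and Pclaf were at 9.48 to 22.7 CPM in set 1 and 51.1 to 89.1 CPM in set 2. In comparison cells these genes were level or lower in set 2, with log2 ratios of -0.75 to 0.05. With each cell counted equally, Nusap1 had a log2 ratio of 0.037 in place of 2.32, and Smc2 and Pclaf had ratios of -0.45 and -0.20 in place of 1.90 and 1.86, so these 3 differences depended on how the cells were weighted, among other choices. With at least 1 CP10K of the rule genes Nusap1 was at 0.73, and with no mitochondrial limit Prc1 was at 0.87 and Smc2 at 0.49, all below 2-fold. Without members rich in enterocyte, goblet or Paneth markers Pclaf was at 0.85, and Cdca3 and Smc2, at 1.30 and 1.23, no longer had separate intervals. Dut kept its call in every alternative run.

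Higher in set 1 were Malat1 and AY036118, 2 non-coding transcripts, Gm42418, a transcript with ribosomal RNA sequence, Lars2, Psme4 and Slc7a11. Malat1, a nuclear RNA, was at 43046 CPM in members of set 1 and 13634 CPM in those of set 2, while comparison cells had 3407 and 6219 CPM. Malat1 thus also counted as higher in members than in comparison cells, 12.6-fold in set 1 and 2.19-fold in set 2. Gm42418 was at 4722 and 1666 CPM in members and 2797 and 3372 CPM in comparison cells. Among members with at least 10000 UMIs the log2 ratios of AY036118, Lars2 and Gm42418 (set 2 over set 1) were -0.76, -0.78 and -0.73, below 2-fold, against -1.58, -1.55 and -1.50 in all members. With no mitochondrial limit Malat1 and Psme4 were at -0.93 and -0.83, also below 2-fold, against -1.66 and -1.28. Psme4 was at -0.81 without the 3 members of each set with the highest rule sum. Depth and these transcripts moved together between the sets, and their part in the other differences was not tested.

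Some of the named genes were also set against 3 other populations, as a description, since they were chosen for their level in these members. Enteroendocrine cells (757 cells with at least 5 CP10K of Chgb), Olfm4 cells (182 cells with at least 2 Olfm4 UMIs) and enterocyte-rich cells (154 cells, the 5% of remaining cells with the most Apoa1, Apoa4, Alpi and Anpep) had S100a6 at 2.56 to 38.6 CPM in either set, against 7038 and 4278 CPM in members. Msln was counted at or below 0.870 CPM and Krt23 at or below 2.68 CPM in all 3. The 10 Olfm4 cells of set 2 held 0 Msln UMIs and 1 Krt23 UMI, with upper limits of 8.90 and 13.4 CPM. Ly6a was also present in enteroendocrine cells, at 103 CPM in set 1 and 31.4 CPM in set 2, against 208 and 251 CPM in members and 0.686 and 0.340 CPM in comparison cells. Gprc5a (16.6 and 11.02 CPM), S100a14 (78.2 and 44.9 CPM) and Cxcl16 (34.2 and 38.6 CPM) were likewise above comparison levels in enteroendocrine cells, and below members.

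The genes that were low in members were not all low against every population. Oat was at 3555 and 2467 CPM in enterocyte-rich cells, 573 and 367 CPM in Olfm4 cells and 209 and 134 CPM in enteroendocrine cells, against 75.8 and 110 CPM in members. Pigr was at 2016 and 2159 CPM in enterocyte-rich cells and at 369 to 500 CPM in the other 2 populations, all above the 64.4 and 93.1 CPM of members. Cps1 was at 28.4 and 31.0 CPM in members and at a similar 45.2 and 29.0 CPM in enteroendocrine cells, with 404 and 239 CPM in Olfm4 cells. Dmbt1 in enterocyte-rich cells, at 6.40 and 1.45 CPM, was below the 13.3 and 14.4 CPM of members.

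**Figure D5:**
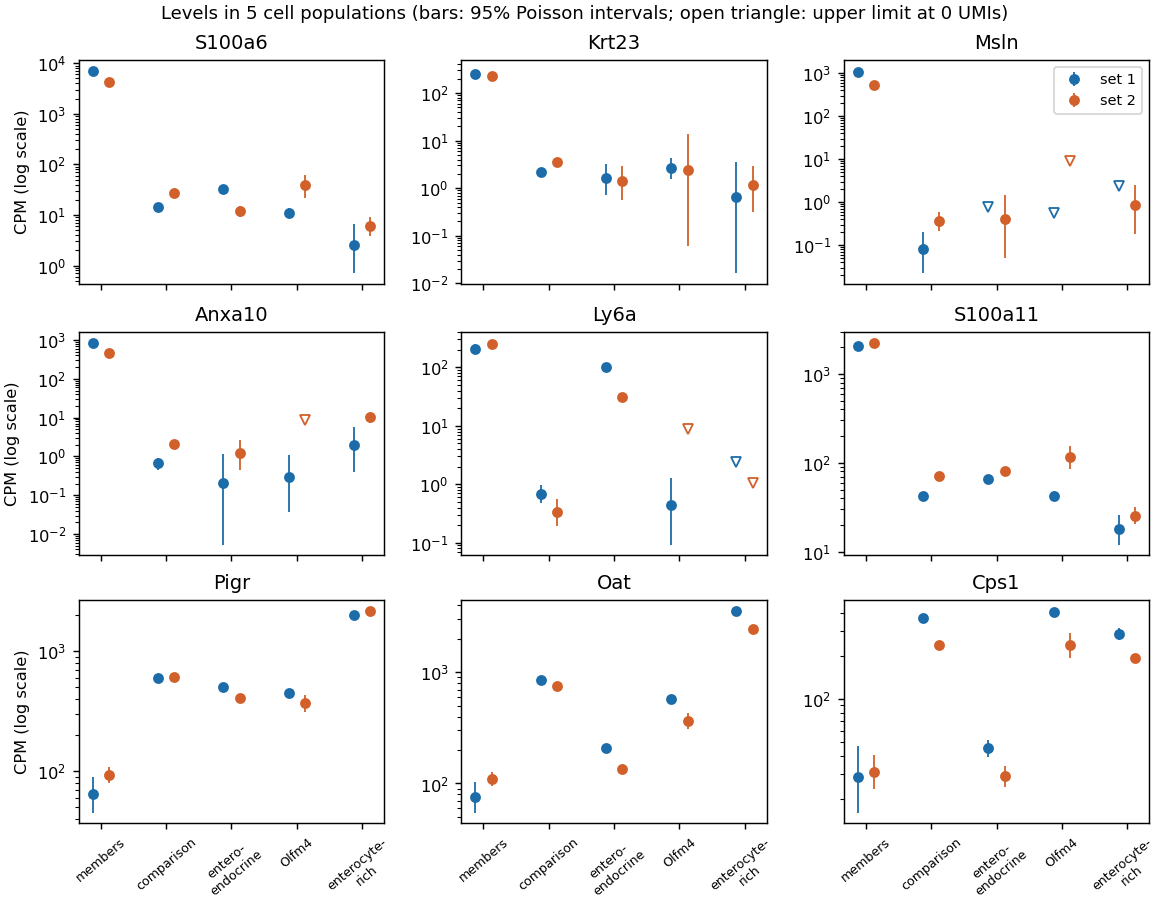
Summed level (CPM, log axis, with scales that differ between panels) of 9 genes in members, comparison cells, enteroendocrine cells, Olfm4 cells and enterocyte-rich cells of set 1 (blue) and set 2 (orange), with 95% exact Poisson intervals and open triangles for the upper limit where no UMI was counted. S100a6, Krt23, Msln, Anxa10 and S100a11 are highest in members, Ly6a is next highest in enteroendocrine cells, and Pigr and Oat are highest in enterocyte-rich cells.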

How the data were processed

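The deposited matrix held raw counts: each whole number gave the UMIs of a gene in a barcode, and the authors had not normalized them. Per the labels' protocols, cells of 3 organoid lines were pooled for each library and sequenced as droplet-based 3' libraries. The submitters' processing notes name Cell Ranger 3.1.0, bcl2fastq 2.20.0 and STAR 2.7.3a, and the genome build and annotation are not given in the sources used here. Both samples' files were byte-identical, with 21806 barcodes and 31053 genes, of which set 1 held 12364 barcodes (107997440 UMIs) and set 2 held 9442 (86071133 UMIs).

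Computed from the counts (python 3.11.15, numpy 2.4.6, scipy 1.17.1, pandas 2.3.3, matplotlib 3.10.9) were sums over cells scaled to the total UMIs of the group (CPM) with exact Poisson intervals, log2 ratios with a pseudocount of 1 CPM, and exact Clopper-Pearson intervals for shares. The pseudocount understates differences of low genes. A count of 0 was read against a floor of 3 UMIs over the group. Shares of cells with a UMI were the expected values after hypergeometric thinning to 2000 UMIs, which left out 1 member and 136 and 49 comparison cells. Doublets were not removed. A simulated-doublet score was computed per set, and an alternative left out the top 5% of scores, which held 1 member of each set. The contrast was also run on simulated Poisson sums with no variation between cells. That run does not bear on calls carried by a few cells. PCR copies were collapsed by UMI, and cells of a set share 1 library, so intervals do not measure spread between cultures.

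The members, the 27 gene lists and the rules were chosen with earlier results of these data known. Named genes were the markers, Chgb and Olfm4, the 15 most elevated genes with at least 50 CPM and a UMI in at least 25% of members of each set, and the 12 most reduced genes with at least 50 CPM in comparison cells. Between the sets they were the 6 largest and 6 smallest ratios among genes with at least 50 CPM in either set and under 50% of UMIs in 3 cells. In each list they were the genes called and up to 4 more. Some genes these rules chose are not reported here. Of the genes called higher, 48 had fewer than 10 UMIs in comparison cells of a set and passed the filter through the members. The median log2 ratio of all tested genes was -0.09 in set 1 and 0.05 in set 2, and 20 genes were higher in 1 set and lower in the other.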

Additional observations from a re-analysis of the deposited data

Results flagged for a closer look

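Of the 6110 barcodes of set 1 that had enough genes and UMIs but over 20% mitochondrial UMIs, 94 met the rest of the rule (1.54%, exact interval 1.24% to 1.88%), and of 3671 such barcodes of set 2, 37 did (1.01%, 0.711% to 1.39%). They are given because they lie outside the kept cells. Their shares exceed the 0.0491% and 0.0817% that a count of 0 would allow, which says only that such barcodes were present, since the rule genes themselves chose them. In 66 and 22 of them the level came from 1 UMI, and 7 and 8 had an S100a6 UMI. Their median depth was 3874 and 4510 UMIs, and their S100a6 level was 192 and 200 CPM, against 7038 and 4278 CPM in members.

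Cells over the Chgb limit whose rule genes reached 2 CP10K, which the rule set aside, numbered 3 in set 1 and 3 in set 2. Their rule sums ran from 2.54 to 8.55 CP10K in set 1 and from 8.34 to 14.2 CP10K in set 2, and 0 and 2 of them had an S100a6 UMI.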

How the results depend on the processing

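No paired analysis was possible because the labels give 1 sample per group, the files of both samples were identical and nothing ties a barcode suffix to a label. The rule itself moved the numbers of members most. With at least 4 CP10K, set 2 had 20 members (1.13%), genes lower in members numbered 267 and distinct list genes lower numbered 19. With at most 10% mitochondrial UMIs set 1 had 14 members. With no mitochondrial limit the sets had 120 and 71 members, with shares of 1.43% and 1.31%, so set 1 no longer had the lower share. Genes higher and lower in set 2 than in set 1 then numbered 435 and 158, and list genes lower numbered 5. With at least 10000 UMIs set 1 had 13 members (0.719%). Without the 3 members with the highest rule sum of each set, list genes lower numbered 5.

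A pseudocount of 10 CPM gave 417 genes higher and 71 lower. All other kept cells as comparison gave 23 list genes lower. A limit of 1.5-fold gave 1210 higher, 395 lower, 16 list genes lower and 405 genes lower in set 2 than in set 1. Without members rich in enterocyte, goblet or Paneth markers, chosen after seeing the data, 13 (0.568%) and 19 members (1.09%) were left, with 470 genes higher, 21 list genes lower, and 174 genes higher and 119 lower in set 2 than in set 1. Unthinned, Krt23 was found in 46.2% and 70.6% of members and 2 proliferation UMIs in 73.1% and 85.3%, and a limit of 4 thinned UMIs gave 3.73% in set 1. Counting each cell equally reversed Smc2 (-0.45) and Pclaf (-0.20) and left Nusap1 at 0.037. With genes filtered by comparison cells alone, also chosen after seeing the data, 731 were higher and 175 lower, and distinct list genes higher numbered 90. Among named genes 910 values kept direction and call, 2 lost the call and none reversed. Among genes named between the sets, 165 values kept both, 13 lost the call and 2 reversed. The shallow members of set 1 limit what absence of a UMI shows there.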
